A study of Mus musculus with 49 samples.

Results

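Nuclear RNA was compared with whole cell RNA of medium spiny neurons (MSNs) that carry the D2 dopamine receptor, in the mouse nucleus accumbens. The comparison took every count column named for nuclear D2 libraries and every column named for whole cell D2 libraries, which were 12 of the 49 count columns of the series, 5 nuclear and 7 whole cell. One whole cell library had been counted on separate lanes, and its columns were summed, which left 5 nuclear and 6 whole cell libraries, 11 in all. Every library came from the brain of a different male mouse of the C57BL/6J strain. No treatment was named, and the age of the mice is not given in the sources used here.

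The groups differed in more than the compartment. Nuclei came from frozen tissue that was broken up mechanically and cleared on a sucrose gradient, and were sorted by a GFP label in mice of the cross Drd2-cre x Thy1-loxPSTOPloxP-EGFP-F. Whole cells came from fresh tissue digested with papain and drawn through pipette tips, and were sorted by a cytoplasmic fluorophore under the Drd2 promoter. Compartment, tissue state, dissociation and mouse line therefore cannot be told apart, and "higher in nuclear" describes the libraries. The label in both lines also follows a promoter that some cells other than MSNs can use, such as cholinergic interneurons.

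Much of the RNA in a nucleus is newly made and still carries introns. Messenger RNA is spliced, capped and given a poly(A) tail before export, and most of the mature pool sits in the cytoplasm on ribosomes. A few long non-coding RNAs, Malat1 among them, stay in the nucleus, whereas mitochondrial transcripts are made and kept in mitochondria. D2-MSNs are the GABA neurons of the indirect pathway of the striatum, and are known for Drd2, the adenosine receptor gene Adora2a, the enkephalin precursor gene Penk and the orphan receptor gene Gpr6. Because counts here covered the whole gene body and total RNA was depleted of ribosomal RNA, intron-containing and mature RNA of a gene were added together in each value.

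Nuclear libraries held from 3701255 to 47079150 counts, and the shallowest, number 7, stood apart from the other 4, which held at least 35944738. Whole cell libraries held from 10850298 to 27965357 counts. A count of 3 corresponded to between 0.064 and 0.811 CPM (counts scaled to a common library size and given per 1e6) in nuclear and between 0.107 and 0.276 CPM in whole cell libraries. Pearson correlations of log CPM ran from 0.945 to 0.995 among nuclear libraries, from 0.828 to 0.927 among whole cell libraries and from 0.738 to 0.940 between the groups. Whole cell libraries 2, 5 and 6 gave 47.6%, 14.7% and 29.2% of their counts to 3 genes over ribosomal RNA sequence (CT010467.1, Gm42418 and AY036118), against 3.46% to 10.9% in nuclear libraries. Coverage of olfactory and vomeronasal receptor genes, which neurons of the striatum are not known to use, was taken as a background per kilobase. Scaled to all gene spans it came to 32.4% to 52.3% of nuclear counts and 8.33% to 36.8% of whole cell counts.

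The D2 label was checked against D1-MSN libraries of the same series, 6 nuclear and 8 whole cell. Reads of Drd2 outnumbered those of Drd1, the D1 receptor gene, by 38.6 to 79.0 to 1 in the nuclear D2 libraries and by 3.57 to 11.2 to 1 in the nuclear D1 libraries, with no overlap. In whole cell libraries the ratio was at least 48.2 in D2 and at most 0.786 in D1. The other defining markers did not all follow the label in nuclei. Penk, scaled over all 4 groups, averaged 32.0 ± 18.8 CPM (SD, n = 5) in nuclear D2 and 515 ± 357 CPM (SD, n = 6) in nuclear D1 libraries, which goes against the label, whereas in whole cells it averaged 1555 ± 943 CPM (SD, n = 6) in D2 and 142 ± 91.5 CPM (SD, n = 8) in D1. Of 9 D2 markers, 3 had a higher mean in nuclear D2 than in nuclear D1 libraries, or 7 when libraries were scaled by total counts, and all 9 did in whole cells. The 3 were Drd2, Ankk1 and Ttc12, at 1.14, 1.23 and 5.44 times the nuclear D1 mean. Ptprm, Grik3, Sp9, Adora2a, Gpr6 and Penk were at 0.83, 0.65, 0.43, 0.31, 0.14 and 0.062 times it. With total counts Gpr6 and Penk stayed lower, at 0.56 and 0.25 times. Whether Drd2, Ankk1 and Ttc12 are independent of one another was not tested. Of 8 D1 markers, 2 had a higher mean in nuclear D2 than in nuclear D1 libraries, or 4 with total counts. Among the single markers that followed the label in nuclei were Ttc12, at 62.3 to 71.6 CPM in D2 and 8.43 to 17.6 CPM in D1, and Sfxn1, at no more than 16.97 CPM in D2 and no less than 42.5 CPM in D1. "Nuclear D2" is therefore used here as the name of the libraries.

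Several of the genes with the largest differences were short RNAs with close copies elsewhere in the genome, and their sequences show how much of each a copy shares. A sequence that is shared in full cannot by itself place a read at one gene. The sequences are GENCODE release M21 transcripts on GRCm38, written 5′ to 3′, and capitals mark bases in runs of at least 20 that the named partner also holds. Rn7sk (chr9:78175303-78175633, minus strand) encodes 7SK, a small nuclear RNA that holds back the elongation factor P-TEFb, and is given as the reference. The first 300 bases of each of these 3 RNAs are shown. Gm24447 (chr15:93234363-93234700, plus strand) and Gm26035 (chrX:152923453-152923760, minus strand) hold 241 and 205 bases in runs shared with Rn7sk and then run into unrelated tails.
Rn7sk: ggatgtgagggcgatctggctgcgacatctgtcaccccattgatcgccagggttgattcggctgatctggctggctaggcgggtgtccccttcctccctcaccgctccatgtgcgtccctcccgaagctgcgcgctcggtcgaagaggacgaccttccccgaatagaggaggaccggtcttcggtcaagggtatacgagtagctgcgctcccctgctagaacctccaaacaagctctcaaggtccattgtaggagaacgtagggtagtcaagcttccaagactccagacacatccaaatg
Gm24447: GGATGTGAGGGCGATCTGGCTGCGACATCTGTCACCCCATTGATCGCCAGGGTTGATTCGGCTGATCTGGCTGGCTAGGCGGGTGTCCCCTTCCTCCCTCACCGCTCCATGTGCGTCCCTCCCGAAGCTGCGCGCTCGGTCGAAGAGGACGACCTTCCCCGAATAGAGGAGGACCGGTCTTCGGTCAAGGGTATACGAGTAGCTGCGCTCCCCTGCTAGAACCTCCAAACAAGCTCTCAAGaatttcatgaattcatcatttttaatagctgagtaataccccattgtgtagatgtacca
Gm26035: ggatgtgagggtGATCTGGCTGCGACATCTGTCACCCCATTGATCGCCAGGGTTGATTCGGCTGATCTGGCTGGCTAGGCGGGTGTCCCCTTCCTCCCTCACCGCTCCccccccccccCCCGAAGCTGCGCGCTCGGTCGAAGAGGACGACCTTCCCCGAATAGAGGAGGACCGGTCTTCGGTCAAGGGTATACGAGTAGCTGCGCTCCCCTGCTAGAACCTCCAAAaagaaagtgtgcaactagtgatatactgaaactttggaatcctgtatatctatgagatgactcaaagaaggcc

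Gm26232 (chr3:96450446-96450611, plus strand) holds no base outside runs shared with Rnu1b6, a gene of the U1 small nuclear RNA that marks the 5′ end of introns for splicing. Gm23935 (chr16:11144125-11144181, plus strand) and Gm24270 (chr9:56223715-56223771, minus strand) are the same 57 bases. They are shown because they are named non-coding genes that differed in opposite directions, Gm26232 being lower and Gm23935 and Gm24270 higher in nuclei.
Gm26232: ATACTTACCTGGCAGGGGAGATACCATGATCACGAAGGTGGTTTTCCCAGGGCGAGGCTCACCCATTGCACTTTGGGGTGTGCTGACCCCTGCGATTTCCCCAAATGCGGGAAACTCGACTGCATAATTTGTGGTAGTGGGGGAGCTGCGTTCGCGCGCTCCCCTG
Gm23935 and Gm24270: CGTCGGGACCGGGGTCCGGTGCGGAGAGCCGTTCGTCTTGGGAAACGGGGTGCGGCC

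Across 34743 genes tested with edgeR's quasi-likelihood test, 835 were higher in nuclear libraries (2.40% of genes tested) and 2954 were lower (8.50% of genes tested), at a Benjamini-Hochberg adjusted p of at most 0.05 and a log2 fold change beyond 0.38 in either direction. All log2 fold changes are nuclear over whole cell. The split between directions followed the scaling of the libraries. Nuclear-high genes made up 22.0% of calls with the trimmed mean of M-values (TMM), 31.6% with upper quartile scaling and 52.5% with total counts alone, which called 1081 genes higher and 977 lower and moved the median log2 fold change of all genes from 0.26 to 0.64. No gene was called in opposite directions under any alternative for which this was counted, which leaves out the fit without a replicate block on 8 libraries.

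D2-MSN genes themselves were lower in nuclear libraries. Penk (ENSMUSG00000045573, chr4:4133531-4138819) was at 34.5, 65.0, 72.5, 9.78 and 36.4 CPM in nuclear libraries 1, 2, 3, 5 and 7, and at a lowest of 863, a median of 1270.2 and a highest of 2780.4 CPM in whole cell libraries. The groups did not overlap, and the log2 fold change was -5.20 ± 0.51 (SE), with an adjusted p of 1.0e-05 by edgeR. Penk is a short gene with 30.9% of its span exonic. Adora2a (ENSMUSG00000020178, chr10:75316877-75334784) was at 17.8, 19.8, 22.8, 17.1 and 16.8 CPM in nuclei and from 96.9 over a median of 142 to 361 CPM in whole cells, a log2 fold change of -3.30 ± 0.34 (SE, adjusted p = 1.6e-05, edgeR). Gpr6 was at 1.57, 2.14, 2.43, 0.740 and 0 CPM in nuclei and between 21.2 and 96.6 CPM in whole cells. Nuclear library 7 held no Gpr6 count, which at its depth allows up to 0.811 CPM.

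Drd2 itself (ENSMUSG00000032259, chr9:49340627-49408177), with 3.77% of its span exonic, showed a smaller difference. It was at 339, 387, 451, 202 and 217 CPM in nuclear libraries and at a lowest of 493, a median of 1089 and a highest of 3003 CPM in whole cell libraries. Every nuclear library lay below every whole cell library, with a log2 fold change of -2.04 ± 0.38 (SE) and an adjusted p of 0.0020 by edgeR. Of the 9 D2 markers tested 6 were lower in nuclear libraries and 0 higher, against a background of 8.50% lower and 2.40% higher, and the median of the list was -1.41. Of 35 genes known from MSNs of either type 29 were lower and 0 higher, with a median of -1.52. Their leading members by level were Phactr1 at -0.96 ± 0.43 (SE, adjusted p = 0.18, edgeR), a regulator of actin and phosphatases, and Pde10a, the main striatal phosphodiesterase, at -0.99 ± 0.37 (SE, adjusted p = 0.11, edgeR), neither past the threshold. The transcription factor gene Foxp1 and the calcium release channel gene Ryr3 came next, at -0.96 ± 0.29 and -0.89 ± 0.26 (SE). Both were called, and both calls were lost in fits that left out 1 library, among them whole cell library 5, without which Foxp1 was at -0.64 (adjusted p = 0.058). In bulk libraries such as these, fewer cells of a type and less RNA per cell cannot be told apart.

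D1-MSN markers gave no call. Drd1 was at 5.54, 5.81, 7.30, 2.56 and 5.62 CPM in nuclear libraries and from 0.410 to 18.3 CPM, with a median of 7.82, in whole cell libraries. The groups overlapped, and the log2 fold change of -0.55 ± 0.70 (SE) did not pass the threshold (adjusted p = 0.68, edgeR). None of the 8 D1 markers tested was called, and their median was 0.25, close to that of all genes.

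**Figure D1:**
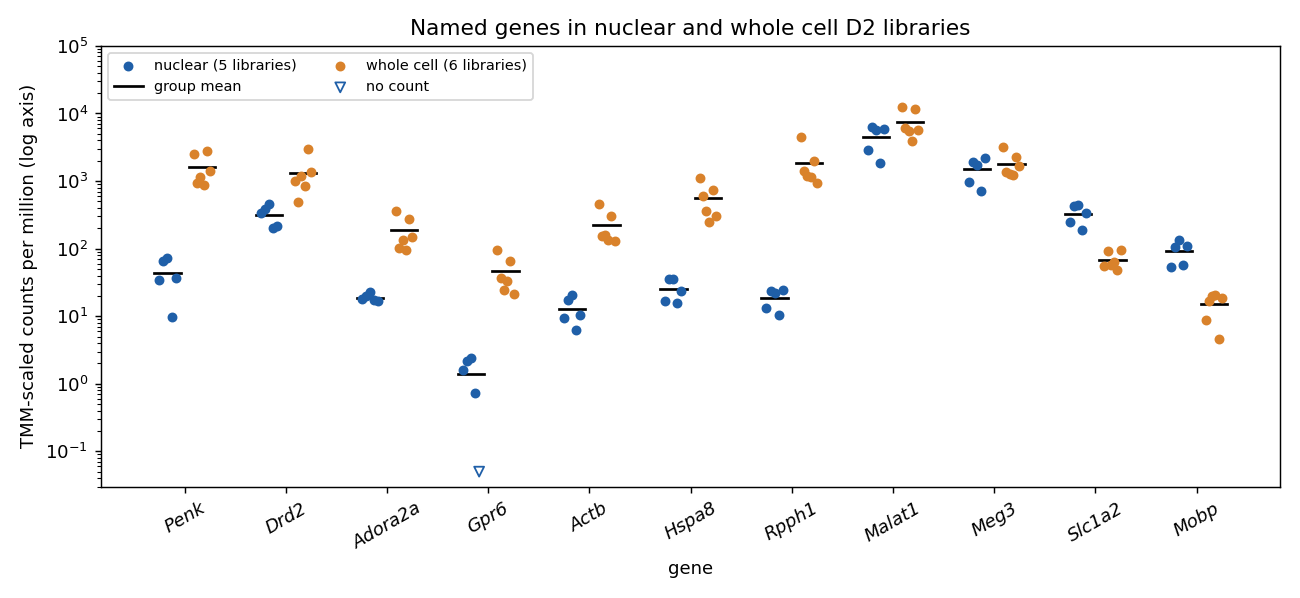
CPM (TMM-scaled, log axis) of 11 genes in the 5 nuclear (blue) and 6 whole cell (orange) D2 libraries, 1 point a library, with group means as black bars and an open triangle for a library with no count. Penk, Drd2, Adora2a, Gpr6, Actb, Hspa8 and Rpph1 lie lower in every nuclear library, Slc1a2 and Mobp lie higher, and Malat1 and Meg3 overlap.

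Among the genes with the largest differences were small structural RNAs and copies of them, all lower in nuclear libraries. Rpph1 (ENSMUSG00000092837, chr14:50807449-50807767), the RNA of ribonuclease P that trims transfer RNAs, was at 13.1, 23.4, 21.7, 10.2 and 24.5 CPM in nuclear libraries and from 923 over 1311 to 4433 CPM in whole cell libraries. The groups were far apart, with a log2 fold change of -6.64 ± 0.48 (SE) and an adjusted p of 8.2e-07 by edgeR. In D1 libraries, in the fit across both cell types described below, Rpph1 was at -0.70 ± 0.63 (SE) and was not called. Rmrp, the RNA of the related ribonuclease MRP, was at 10.0, 26.8, 14.9, 6.02 and 16.2 CPM in nuclei and from 37.3 over 244 to 1471 CPM in whole cells (log2 fold change -4.80 ± 0.88 SE, adjusted p = 0.0030, edgeR). Ccdc107, a protein-coding gene, followed it at -4.81, but its span overlaps Rmrp and reads in the overlap were counted for both.

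Rn7sk, a nuclear RNA, was also the lower one in nuclei. It was at 33.7, 36.0, 39.0, 11.8 and 38.86 CPM in nuclear and from 32.2 over 132 to 717 CPM in whole cell libraries, so that the groups overlapped, and the log2 fold change was -2.76 ± 0.65 (SE, adjusted p = 0.010, edgeR). That call was lost without nuclear library 5 (adjusted p = 0.058), with total counts (-2.60, adjusted p = 0.095) and after background subtraction (-2.13, adjusted p = 0.063). The copies printed above, chosen for the size of their difference, differed more than Rn7sk. Other copies differed less, Gm24146 at -2.36 (adjusted p = 0.049, edgeR) and, not called, Gm23973 at -1.11 and Gm26315 at -0.86. Gm24447 averaged 4.04 ± 1.97 CPM (SD, n = 5) in nuclei and 2547 ± 1897 CPM (SD, n = 6) in whole cells, where Rn7sk, of nearly the same length (331 against 338 bases), averaged 215 ± 255 CPM (SD, n = 6). Gm26035 was at 0.0456, 0.119, 0.0777, 0.0200 and 0 CPM in nuclei, at or under the level of a few reads, and from 7.05 over 13.4 to 57.1 CPM in whole cells. Gm26232, the U1 copy, had at most 0.0600 CPM in nuclei and from 1.94 over 36.9 to 194 CPM in whole cells. Reads that matched several places were left out by the authors, so the level of a copy rests on the reads that could be placed there.

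Processed copies of messenger RNAs had members on both sides. Of 2423 processed pseudogenes 95 were higher (3.92%, against 2.40% of all genes) and 101 lower (4.17%, against 8.50%), so the class did not lean to the whole cell side. Gm4202 and Rpl3-ps1 were among those lower in nuclei. Gm4202 shares 97.9% of its 20-base runs with Ywhaz, which encodes a 14-3-3 protein, and was at 0.137, 0.297, 0.0194, 0.140 and 0 CPM in nuclei against 89.3 to 383 CPM in whole cells. Ywhaz was lower in nuclei by a smaller amount, with a log2 fold change of -1.63 and an adjusted p of 0.0042 by edgeR. Rpl3-ps1 shares 96.6% of its runs with the ribosomal protein gene Rpl3, and was at most 0.0911 CPM in nuclei against 5.82 to 27.8 CPM in whole cells, while Rpl3 stood at -1.29 (adjusted p = 0.074, edgeR). Gm5879, which holds 82.4% of the runs of Rpl3-ps1, was called in the other direction, at 0.848 ± 0.176 CPM (SD, n = 5) in nuclei and 0.0119 ± 0.0291 CPM (SD, n = 6) in whole cells (adjusted p = 0.0099, edgeR).

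Of the 8 small structural RNAs tested 6 were lower in nuclear libraries, with a median of -3.75 and none higher. As a share of all counts they made up 0.00850% ± 0.00263 (SD, n = 5) in nuclei and 0.252% ± 0.249 (SD, n = 6) in whole cells. The ranges, 0.00425% to 0.0108% and 0.0804% to 0.746%, did not overlap (two-sided exact permutation test, p = 0.0065, adjusted over 8 shares 0.046). Whole cell library 1 carried the highest share, and without it the whole cell mean was 0.154% and the adjusted p 0.021.

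Gm23935 and Gm24270, the same 57 bases, went the other way. Gm23935 was at 565, 1325, 1124, 348 and 1439.9 CPM in nuclear libraries and from 8.77 over 13.4 to 34.6 CPM in whole cell libraries, with a log2 fold change of 5.78 ± 0.44 (SE, adjusted p = 1.2e-06, edgeR). Gm24270 was at 13.4, 22.7, 32.4, 5.12 and 24.5 CPM in nuclei and at most 1.48 CPM in whole cells. Zc3h7a, an RNA-binding zinc finger gene whose span contains Gm23935, was at 978, 2341, 1977, 669 and 2329 CPM in nuclei and from 62.1 to 149 CPM in whole cells, the largest difference among protein-coding genes on the nuclear side (log2 fold change 3.96 ± 0.34 SE). Reads over Gm23935 were counted for both genes, so the level of Zc3h7a includes them. The 3 ribosomal RNA locus genes took 4.56%, 10.2%, 8.92%, 3.46% and 10.9% of counts in nuclear libraries 1, 2, 3, 5 and 7, which ranks these libraries as Gm23935 does. In whole cell libraries they took 0.446% to 47.6%, with Gm23935 at no more than 34.6 CPM. Whether ribosomal RNA reads fell on Gm23935, Gm24270 or Zc3h7a was not tested.

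Messages of the cytoskeleton were lower in nuclear libraries. Actb (ENSMUSG00000029580, chr5:142903115-142906754), the cytoplasmic actin gene with 73.6% of its span exonic, was at 9.29, 17.5, 20.3, 6.20 and 10.3 CPM in nuclei and from 131 over 156 to 464 CPM in whole cells. The log2 fold change was -4.14 ± 0.42 (SE, adjusted p = 1.3e-05, edgeR) and the groups did not overlap. In D1 libraries, in the fit across both cell types described below, Actb was at -0.09 ± 0.52 (SE) and was not called. Of 27 genes of actin, tubulin and their partners 16 were lower and 0 higher, with a median of -1.73. Map2, the dendritic microtubule protein gene with only 6.15% of its span exonic, was lower as well, at 231, 283, 272, 159.7 and 180.4 CPM against 445 to 1240.0 CPM.

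Chaperone genes showed one of the larger shifts of the lists. Hspa8 (ENSMUSG00000015656, chr9:40800984-40810087), the constitutive heat shock protein 70 gene, was at 16.8, 35.9, 35.9, 15.6 and 23.8 CPM in nuclei and from 244 over 479.8 to 1117 CPM in whole cells (log2 fold change -4.45 ± 0.42 SE, adjusted p = 9.0e-06, edgeR). Hsp90ab1, the constitutive heat shock protein 90 gene, followed at -3.64 ± 0.40 (SE), Hsph1 at -2.82 ± 0.31 (SE) and the endoplasmic reticulum chaperone gene Hsp90b1 at -2.27 ± 0.37 (SE), all called. Of 23 heat shock and co-chaperone genes tested 16 were lower and 0 higher, with a median of -1.67. The stress-induced member Hspa1a was low in both groups, at 0.893 to 2.92 CPM in nuclei and at 0 to 2.38 CPM in whole cells, and was not called (adjusted p = 0.65, edgeR).

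Genes of several housekeeping complexes were lower or not called, and 0 were higher. Of 83 nuclear-encoded respiratory chain genes 52 were lower and 0 higher (median -1.60), and the subunit gene of the ATP synthase Atp5b was at 12.6, 20.1, 18.5, 9.06 and 12.4 CPM against 92.1 to 382 CPM. Atp5o, which had the highest mean of the list, was not called, at -0.34 ± 0.18 (SE, adjusted p = 0.28, edgeR). Of 81 ribosomal protein genes 34 were lower and 0 higher (median -1.48). Rpl4 was at -2.81 ± 0.40 (SE) and Rpl13a at -3.12 ± 0.37 (SE), whereas Rps3, the host of a pair of small nucleolar RNAs that were counted with it, was at -0.76 ± 0.43 (SE, adjusted p = 0.30, edgeR). Of 35 translation factor genes 21 were lower, of 54 splicing factor and hnRNP genes 34 (median -1.15), of 39 proteasome genes 22, of 28 vesicle release genes 15 and of 11 secretory granule genes 6, with 0 higher in each of these lists. Of 46 chromatin enzyme genes 13 were lower and 0 higher, with a median of -0.44 that became 0.05 when low FPKM genes were removed first. Among clustered replication-dependent histone genes, whose messages lack poly(A) tails, 27 of 67 passed the low-count filter and 9 were lower, with a median of -2.45.

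Ribosomal protein genes took 0.0345% ± 0.0033 of counts (SD, n = 5) in nuclei and 0.0798% ± 0.0540 (SD, n = 6) in whole cells (two-sided exact permutation test, p = 0.017, adjusted 0.046). Protein-coding genes of 1 exon took 0.139% ± 0.0038 and 0.289% ± 0.138 (SD, n = 5 and 6, exact p = 0.017, adjusted 0.046). Both shares were below the adjusted threshold without whole cell library 1, at 0.021. Leaving out any 1 of the nuclear libraries raised the adjusted p of these shares and of the small structural RNAs to between 0.11 and 0.22.

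Transcripts of the mitochondrial genome showed a wide range of differences. Of 13 protein-coding transcripts 11 were lower in nuclear libraries and none higher, with a median of -3.18. mt-Co1, a cytochrome c oxidase subunit gene, was at 10.5, 35.2, 32.4, 7.60 and 10.3 CPM in nuclei and from 136 over 165 to 436 CPM in whole cells, a log2 fold change of -3.44 ± 0.45 (SE, adjusted p = 1.1e-04, edgeR). mt-Co2 was at 0.114, 0.436, 0.233, 0.100 and 0 CPM and mt-Atp6 at 0.0456, 0.159, 0.155, 0.0200 and 0 CPM in nuclei, against 13.9 to 86.1 and 31.1 to 153 CPM in whole cells. mt-Cytb and mt-Nd5 differed less, at -1.93 ± 0.43 (SE) and -1.36 ± 0.41 (SE). The call of mt-Nd5 was lost without whole cell library 1 (adjusted p = 0.072) or 6 (adjusted p = 0.10), and without nuclear library 1, 5 or 7. Mitochondrial genes have copies in the nuclear genome, and reads that match both were left out by the authors. The mitochondrial genome as a whole took 0.0747% ± 0.0459 of counts (SD, n = 5) in nuclei and 0.159% ± 0.0863 (SD, n = 6) in whole cells, a difference that did not hold after adjustment (exact permutation p = 0.050, adjusted 0.0996).

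**Figure D2:**
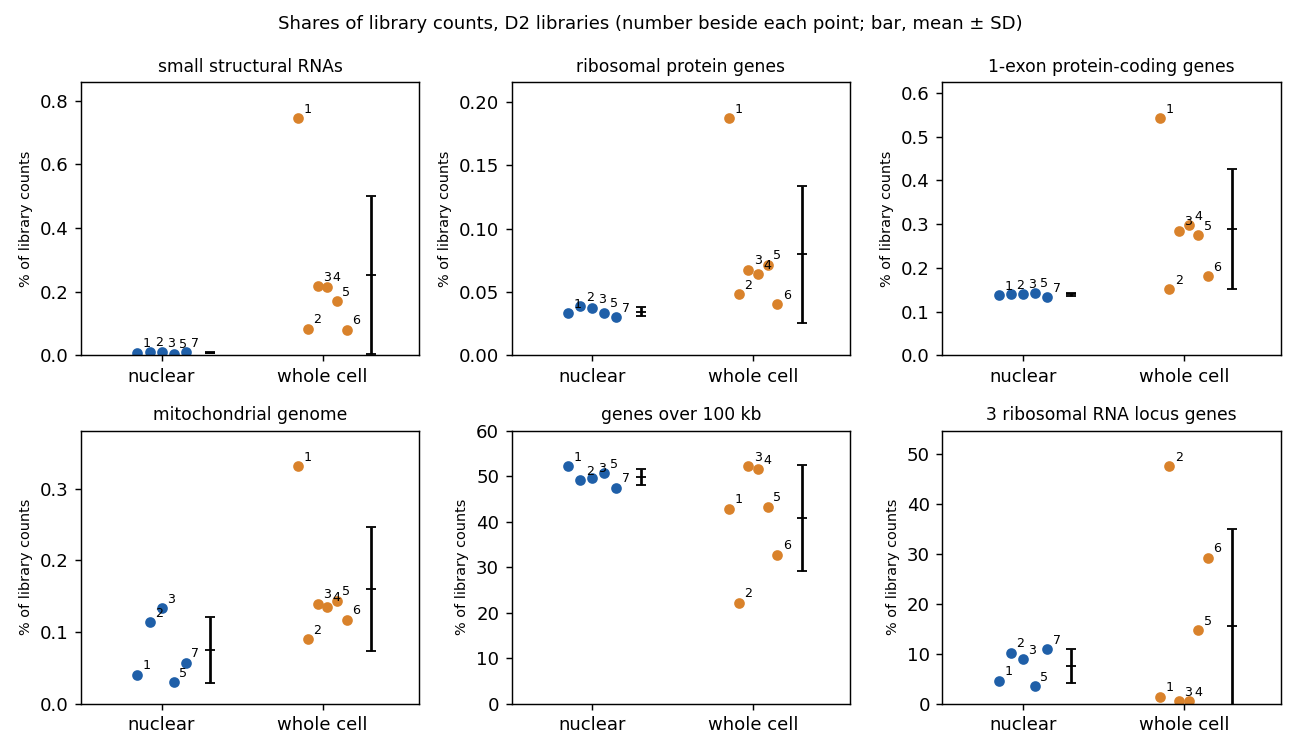
Share of each library's counts (%) on 6 classes of genes, with the library number beside each point and mean ± SD at the side, for nuclear (5) and whole cell (6) D2 libraries. Whole cell library 1 is highest for the small structural RNAs, ribosomal protein, 1-exon and mitochondrial classes, and whole cell libraries 2, 5 and 6 for the ribosomal RNA locus genes.

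The exonic share of a gene's span, which sets how much of its count can come from introns, ordered the differences. Among 11177 protein-coding genes with a mean of at least 10 CPM, genes under 2% exonic had a median log2 fold change of 0.31 (n = 563). Genes with 2% to 5% of their span exonic were close to them, at 0.32 (n = 1600). The median was 0.19 at 5% to 10% (n = 2656), -0.19 at 10% to 20% (n = 3277), -0.55 at 20% to 50% (n = 2612) and -1.43 at 50% to 100% (n = 469). In that last class 62.9% of genes were lower and 0.640% higher in nuclear libraries, against 5.33% lower and 7.46% higher among the 563 genes with under 2% exonic. With total counts as the scale the class medians were 0.68 under 2%, 0.70 at 2% to 5%, 0.19 at 10% to 20% and -1.06 at 50% to 100%. The sign of the 10% to 20% class thus flipped, while the order from 2% up stayed. On that scale 39.4% of the last class was lower, and among genes under 2% exonic 0% were lower and 11.7% higher. Without nuclear library 7 the share lower under 2% exonic was 2.31%. After background subtraction 49.0% of genes were lower at 50% to 100% exonic and 21.6% at 20% to 50%. Under 2% exonic 5.35% were then lower and 12.0% higher. With low FPKM genes removed first, the median at 50% to 100% was -0.85. The background per kilobase also falls on introns, and its part in this order was not tested.

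Gene span ordered the genes in a like manner, and the classes overlap. Genes spanning under 3 kb had a median of -2.99 with 88.9% lower (n = 45), and genes over 300 kb a median of 0.18 with 6.71% lower and 10.1% higher (n = 566). Within genes of 10 to 30 kb the median still went from 0.09 at 2% to 5% exonic (n = 43) to -0.86 at 50% to 100% (n = 156). Within genes of 3 to 10 kb there was little order, with medians of -1.44, -1.47 and -1.71 at 10% to 20%, 20% to 50% and 50% to 100% exonic, and 70.8%, 68.2% and 72.0% of genes lower. Of 40 protein-coding genes of 1 exon 35 were lower and 1 higher, with a median of -3.20. By quartiles, genes in the longest class of spans lay 0.89 above those in the shortest, whereas by summed exon length the longest class lay 0.21 below the shortest.

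**Figure D3:**
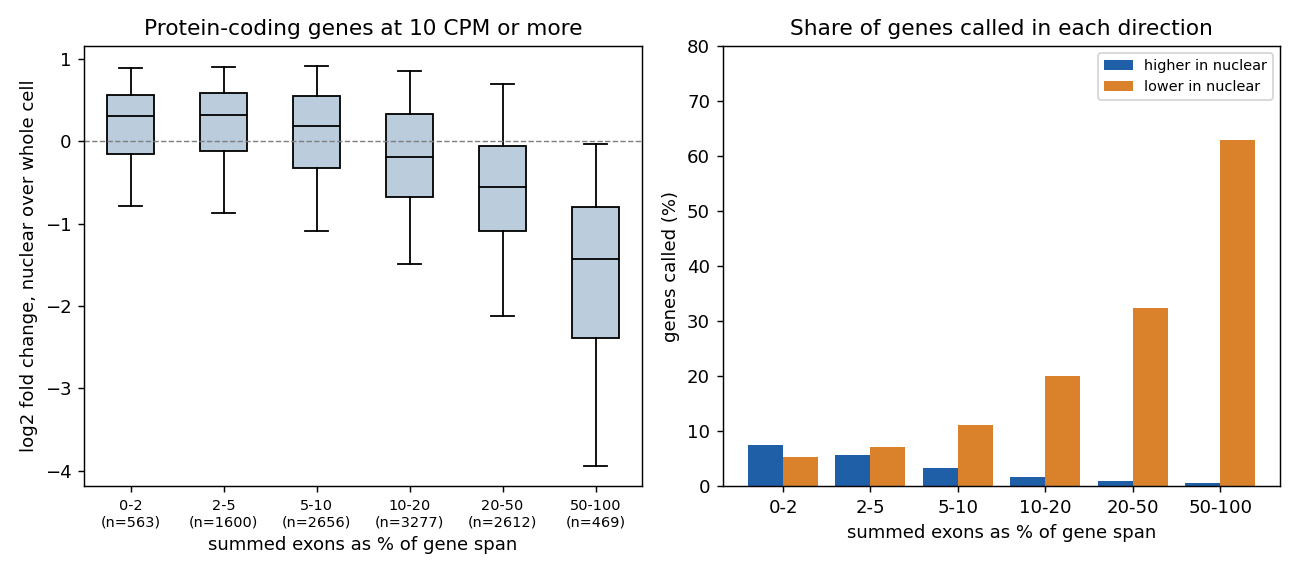
Left, log2 fold change (nuclear over whole cell) of protein-coding genes with at least 10 CPM by exonic share of the gene span, as boxes with the median, quartiles and 5th and 95th percentiles. Right, the share of genes called in each direction, where calls lower in nuclear climb from 5.33% to 62.9% of genes.

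Very long neuronal genes, which are nearly all intron, had calls on both sides. Of 45 tested 7 were higher (15.6%, against 2.40% of all genes) and 4 lower (8.89%, against 8.50%), with a median of -0.23 that became 0.16 with total counts as the scale and 0.26 with low FPKM genes removed. Csmd1, a complement regulator gene, was at 1720.1, 2372, 2087, 1256 and 1755 CPM in nuclei and from 1212 over 1836 to 3651 CPM in whole cells, which overlapped (log2 fold change -0.15 ± 0.26 SE, adjusted p = 0.77, edgeR). Nrxn3, the presynaptic adhesion gene, was at -0.85 ± 0.32 (SE, adjusted p = 0.10, edgeR). Dlg2, a postsynaptic scaffold gene, was at -0.91 ± 0.28 (SE, adjusted p = 0.043, edgeR), but the call was lost in each of 9 fits that left out 1 library.

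Ion channels and receptors, also long genes, had calls on both sides. Of 93 potassium channel genes 7 were higher (7.53%, against 2.40% of all genes) and 14 lower (15.1%, against 8.50%), with a median of 0.22. Kcnj6, the GIRK2 channel gene, was at 189, 233, 213, 223 and 277 CPM in nuclei and from 45.7 over 102 to 137 CPM in whole cells, with no overlap (log2 fold change 1.28 ± 0.24 SE, adjusted p = 0.0024, edgeR). Gabbr2, a GABA-B receptor subunit gene, was at 267, 437, 349, 323 and 385 CPM against 118 to 198 CPM, and was the single one of 18 GABA receptor genes higher in nuclei, with 7 lower. Of 26 glutamate receptor genes 2 were higher (7.69%), Grin2c and Grm8, and 6 lower (23.1%), with a median of -0.22 that became 0.16 with total counts. Grm5, the leading one of those that were lower, was at -1.26 ± 0.28 (SE, adjusted p = 0.0071, edgeR), a call that was lost with total counts (-0.89, adjusted p = 0.088) and after background subtraction (adjusted p = 0.053). Of 40 calcium and sodium channel genes 1 was higher (2.5%, near the share of all genes), the T-type channel gene Cacna1g at 1.36 ± 0.32 (SE, adjusted p = 0.010, edgeR). Another 10 were lower (25%), and the list median of -0.28 became 0.11 with total counts and 0.06 with low FPKM genes removed. Of 57 clustered protocadherin genes 26 were lower (45.6%) and 0 higher, but their spans overlap and share counts.

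Non-coding RNAs known from the nucleus had calls on both sides, and their median lay below that of all genes. Malat1 (ENSMUSG00000092341, chr19:5795690-5802672), which gathers in nuclear speckles, was at 2914, 6254, 5738, 1843 and 5968 CPM in nuclei and from 3954 over 5954 to 12528 CPM in whole cells. The groups overlapped, and the log2 fold change of -0.74 ± 0.35 (SE) did not pass the threshold (adjusted p = 0.22, edgeR). Meg3, a long non-coding RNA of an imprinted locus, was at 971, 1890.2, 1704, 707 and 2192 CPM against 1216 to 3139 CPM, with a log2 fold change of -0.28 ± 0.31 (SE, adjusted p = 0.63, edgeR). Of 20 such RNAs 3 were higher (Miat, Neat1 and Rmst), or 15%, against 2.40% of all genes. Another 3 were lower (Peg13, Rian and Mirg), or 15%, against 8.50%. The list median was -0.07, against 0.26 over all genes. Peg13, an imprinted RNA, was at 4.72, 7.89, 7.30, 4.04 and 4.27 CPM in nuclei and from 29.0 to 111 CPM in whole cells (log2 fold change -3.18 ± 0.38 SE). Rian, from the same locus as Meg3, was at -1.40 ± 0.32 (SE, adjusted p = 0.0087, edgeR), and lost its call with total counts as the scale (adjusted p = 0.065).

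Immediate early genes, which cells switch on within minutes of a stimulus such as dissociation, were mostly not called, and 31 of 43 had a negative log2 fold change. Of 43 tested 8 were lower in nuclei (18.6%, against 8.50% of all genes) and 1 was higher (2.33%, against 2.40%). The other 34 were not called, and the list median was -0.48. Junb, a partner of Fos in the AP-1 factor, was at 2.69, 3.84, 4.12, 3.74 and 3.14 CPM in nuclei and from 10.2 over 19.6 to 46.0 CPM in whole cells (log2 fold change -2.75 ± 0.40 SE, adjusted p = 2.6e-04, edgeR). Rgs2, a brake on G protein signalling, was at 4.28, 4.68, 7.07, 3.46 and 2.92 CPM against 19.0 to 88.4 CPM (-3.23 ± 0.39 SE). Fos was at 2.71, 2.50, 4.43, 2.66 and 0.225 CPM in nuclei and from 3.03 to 16.6 CPM in whole cells, which overlapped, and its log2 fold change of -1.50 ± 0.59 (SE) did not pass the threshold (adjusted p = 0.12, edgeR). Npas4, an activity-dependent factor of neurons, overlapped between the groups, at 7.22 to 23.0 CPM in nuclei and 6.64 to 21.4 CPM in whole cells. Bdnf, the growth factor gene with 11.9% of its span exonic, was the one higher in nuclei, at 19.9, 18.2, 17.5, 21.7 and 14.4 CPM against 2.95 to 12.6 CPM (log2 fold change 1.14 ± 0.33 SE, adjusted p = 0.036, edgeR). Its call was lost without any 1 of the nuclear libraries (adjusted p from 0.055 to 0.11) or without whole cell library 3 or 6.

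Some markers of oligodendrocytes, the myelin-forming cells, and of astrocytes were higher in nuclear libraries. Mobp (ENSMUSG00000032517, chr9:120149707-120181484), a myelin protein gene, was at 52.8, 105, 135, 58.1 and 109.8 CPM in nuclei and from 4.66 over 17.6 to 20.8 CPM in whole cells. The groups did not overlap, with a log2 fold change of 2.62 ± 0.35 (SE, adjusted p = 1.3e-04, edgeR). Of 13 oligodendrocyte markers 5 were higher, among them Mobp, Mag, Cldn11 and Mbp, and 1 was lower (Cnp, -1.07 ± 0.27 SE), with a median of 1.72, and the summed level of the list ran from 366 to 778 CPM in nuclei and from 150.1 to 226 CPM in whole cells. The call of Cnp was lost with total counts (-0.68, adjusted p = 0.19), after background subtraction (adjusted p = 0.095) and without whole cell libraries 2, 5 and 6 (adjusted p = 0.084).

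Slc1a2 (ENSMUSG00000005089, chr2:102658659-102790784), the main glutamate transporter gene of astrocytes, was at 252, 424, 447, 191 and 336 CPM in nuclei and from 48.4 over 60.0 to 96.5 CPM in whole cells (log2 fold change 2.27 ± 0.25 SE, adjusted p = 2.8e-05, edgeR). Of 12 astrocyte markers 4 were higher (Slc1a2, Apoe, Gja1 and Slc1a3) and 0 lower, with a median of 1.05 and a summed level of 399 to 727 CPM in nuclei against 120.4 to 229 CPM in whole cells. Of 7 markers of cortical excitatory neurons 2 were higher, among them Slc17a7, a vesicular glutamate transporter gene, at 2.34 ± 0.57 (SE), and 1 was lower, Nrgn, at -1.14 ± 0.33 (SE). The call of Nrgn was lost with total counts (-0.84, adjusted p = 0.17), after background subtraction (adjusted p = 0.18) and without whole cell libraries 2, 5 and 6 (adjusted p = 0.066), and that of Slc17a7 without those libraries (2.61, adjusted p = 0.097). Of 11 endothelial markers Flt1 was higher. Among microglia (12), GABA interneuron (9) and cholinergic interneuron (7) markers none was called, with medians of 0.59, 0.84 and 0.70. The summed microglia level ran from 365 to 792 CPM in nuclei and from 212 to 6290 CPM in whole cells, which overlapped. Summed GABA interneuron levels ran from 220 to 283 CPM in nuclei and from 56.0 to 215 CPM in whole cells. Summed cholinergic interneuron levels ran from 81.5 to 108 CPM and from 32.5 to 95.9 CPM. These lists sit beside a median of 0.26 over all genes and 0.79 over 1337 chemoreceptor genes, of which 35 were higher and 1 lower. Every listed marker of these types passed the low-count filter, so none was at 0 throughout. The part of such cells or of the background in the other differences was not tested.

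**Figure D4:**
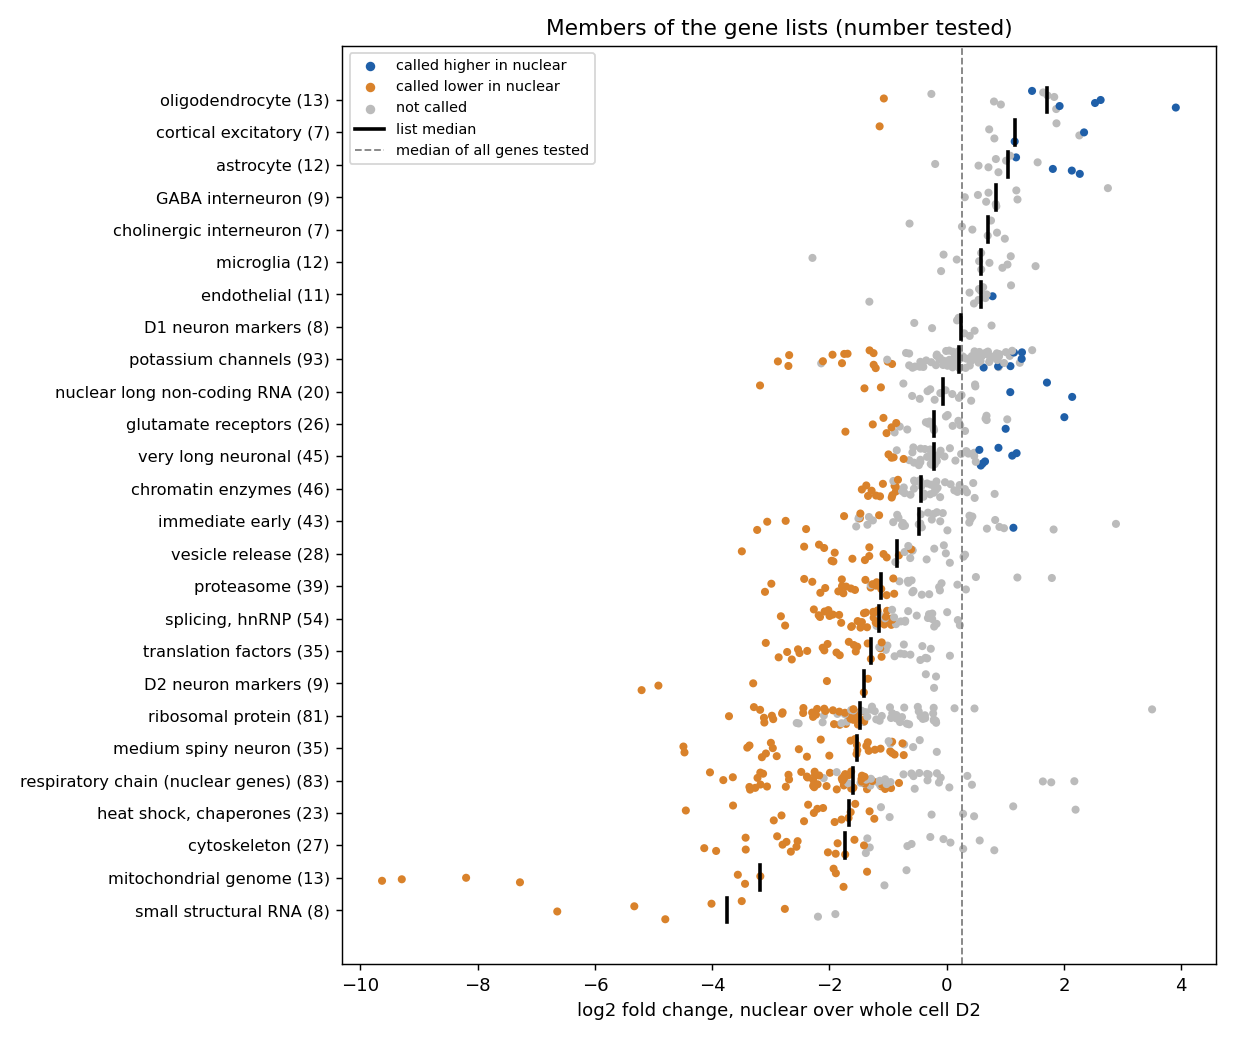
Log2 fold change (nuclear over whole cell) of each tested member of 26 gene lists, 1 point a gene, blue where called higher and orange where called lower in nuclear libraries, with list medians as black bars and the median of all genes (0.26) as a dashed line. The lists run from small structural RNAs at -3.75 to oligodendrocyte markers at 1.72.

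Among the other protein-coding genes with the largest differences on the nuclear side, Il31ra, a cytokine receptor gene, was at 1026, 2198, 1761, 664 and 1615 CPM against 23.4 to 461 CPM in whole cells, and Sspn, a muscle membrane protein gene, at 86.5, 163, 160.1, 60.1 and 210.5 CPM against 5.84 to 24.2 CPM. Zfp600, Rex2 and Zfp986, zinc finger genes with close copies on chromosome 4, were higher at 3.01 ± 0.35, 3.28 ± 0.68 and 2.70 ± 0.80 (SE). The call of Zfp986 was lost without any 1 of the nuclear libraries or without whole cell library 2. Cdr1 was at 25.9, 35.2, 38.2, 11.5 and 15.9 CPM in nuclei and at 1.06 to 5.98 CPM in whole cells, and Mettl7a1 was higher at 3.47 ± 0.74 (SE). Among non-coding genes Gm28928, Gm43391 and Gm20663 were higher, at 3.17 ± 0.33, 3.93 ± 0.68 and 2.97 ± 0.42 (SE).

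On the whole cell side P2ry1, a receptor for ADP, was at 2.26, 1.35, 1.81, 1.80 and 0.225 CPM in nuclei and from 12.5 over 30.6 to 87.0 CPM in whole cells (log2 fold change -4.61 ± 0.53 SE, adjusted p = 3.3e-05, edgeR), and 2210418O10Rik stood at -5.03 ± 0.51 (SE). Cd44, a hyaluronan receptor gene, had a log2 fold change of -7.15 ± 1.82 (SE) that came from whole cell libraries 2, 5 and 6. It was at 42.2 to 48.2 CPM in nuclei, at 55.3, 55.4 and 67.5 CPM in whole cell libraries 3, 4 and 1, and up to 19508 CPM in the others. Those are the libraries high in ribosomal RNA locus genes, and without them the log2 fold change was -0.38 (adjusted p = 0.19).

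Whether the difference between nuclear and whole cell RNA was the same in D2- and D1-MSNs was tested as an interaction across 36243 genes, with 5 and 6 D2 and 6 and 8 D1 libraries. The difference was larger, meaning further to the nuclear side, in D2 for 954 genes (2.63%) and smaller for 6389 (17.6%). These counts depended on the scaling to the point of changing sides. They were 1726 and 2560 with DESeq2 size factors, 1571 and 3882 with upper quartile scaling, 15718 and 153 with total counts, and 785 and 401 after background subtraction. The genes described below, apart from Drd1, were called under each of the scalings and tools tried for them. Nuclear D1 libraries held more Drd2 than Drd1, as given above, and Drd2 averaged 202 ± 110 CPM (SD, n = 6) in them against 23.1 ± 7.18 CPM (SD, n = 8) in whole cell D1 libraries. The D1 values of D2 genes are therefore those of libraries labelled D1, and whether these hold RNA of D2-MSNs was not tested.

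Among them were cell type genes, and also Actb, Rpph1 and P2ry1, which are outside the marker lists. Actb was at -4.54 ± 0.70 (SE) in D2 and -0.09 ± 0.52 (SE) in D1. Its interaction was -4.45 ± 0.83 (SE, adjusted p = 0.0013, edgeR). Rpph1 was at -7.03 ± 0.94 and -0.70 ± 0.63 (SE), and P2ry1 at -5.08 ± 0.65 and -0.08 ± 0.51 (SE). None of these was called within D1. With total counts their interactions shrank to -1.88, -3.71 and -2.44. For Penk the nuclear over whole cell log2 fold change was -5.60 ± 0.73 (SE) in D2 and 1.86 ± 0.52 (SE) in D1, an interaction of -7.46 ± 0.88 (SE, adjusted p = 1.9e-05, edgeR). Drd2 was at -2.45 ± 0.43 (SE) in D2 and 3.12 ± 0.37 (SE) in D1, Adora2a at -3.72 ± 0.43 and 2.23 ± 0.34 (SE), and Gpr6 at -5.37 ± 0.71 and 0.89 ± 0.53 (SE), the last not called within D1. Each was lower in nuclear than in whole cell D2 libraries, and the difference between cell types was called for each. With total counts as the scale, nuclear and whole cell D1 means came to 197 and 172 CPM for Penk and to 2.80 and 4.81 CPM for Gpr6, so the D1 sign of Gpr6 flipped. On that scale the interaction shrank to -5.05 for Penk, -3.16 for Drd2 and -3.47 for Il31ra, and grew to 4.18 for Pdyn and 3.74 for Sfxn1, which are described next. A pair of D1 genes differed in the other cell type. Pdyn, the dynorphin precursor gene, was at 0.16 ± 0.47 (SE) in D2 and -1.87 ± 0.44 (SE) in D1 (interaction 2.02 ± 0.64 SE, adjusted p = 0.024, edgeR), and Sfxn1, a mitochondrial serine carrier gene, at -0.17 ± 0.27 and -1.96 ± 0.26 (SE). Drd1 was not called (interaction 1.40 ± 0.86 SE, adjusted p = 0.24, edgeR), but was with the DESeq2 interaction (2.14, adjusted p = 0.036), with the FPKM filter (3.17, adjusted p = 0.018, edgeR) and with total counts (3.87, adjusted p = 0.0051, edgeR). Il31ra was at 2.94 ± 0.68 (SE) in D2 and 9.53 ± 0.79 (SE) in D1.

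**Figure D5:**
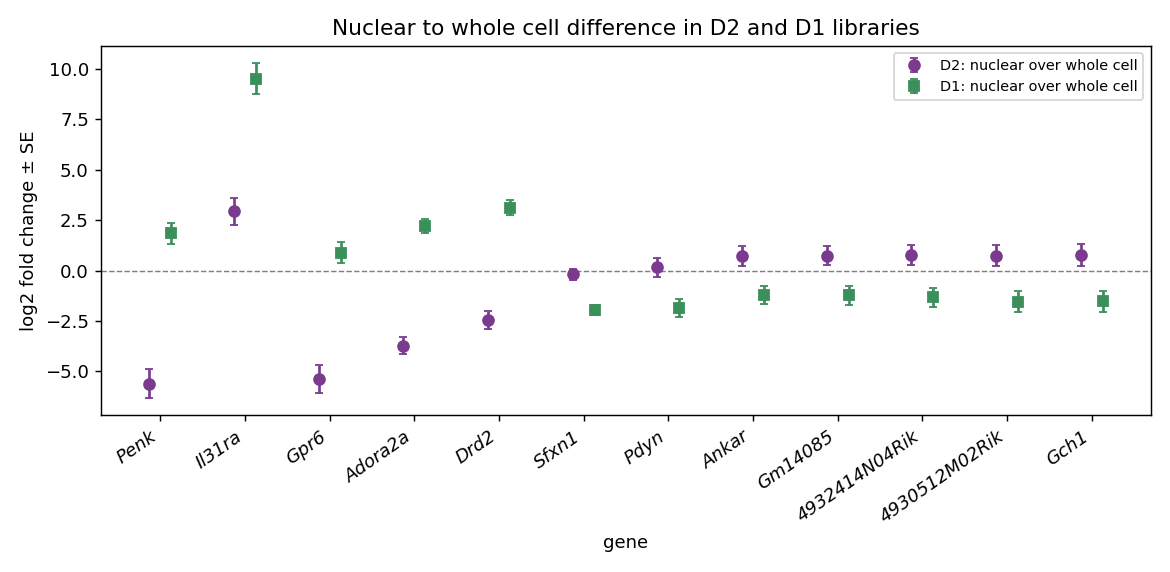
Log2 fold change of nuclear over whole cell RNA (± SE) in D2 (purple circles) and D1 (green squares) libraries for 12 genes with a called interaction, all 4 groups scaled together with TMM. Penk, Gpr6, Adora2a and Drd2 lie below 0 in D2 and above 0 in D1, and Pdyn and Sfxn1 lie near 0 in D2 and below 0 in D1; with total counts as the scale the D1 value of Gpr6 falls below 0.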

How the data were processed

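RNA of sorted D2-MSNs from nucleus accumbens was sequenced as paired ends from ribosomal RNA-depleted total RNA (Clontech SMARTer Stranded kit). The authors aligned reads to GRCm38 with HISAT2 2.0.5, per the submitters' processing notes, and deposited raw counts per Ensembl gene from featureCounts, over the whole gene body, without strand, with overlapping genes both counted and reads matching several places left out. Antisense or overlapping genes therefore cannot be told apart. Counts of the table's columns were used as deposited. Columns name a group and a number but not which labelled sample, so library numbers are those of the columns, and 23 of 49 columns (22 RiboTag and 1 repeat) were not used. Lanes of whole cell library 3 (r = 0.995) were summed. No libraries held identical values. Symbols and spans came from GENCODE release 21 for 99.7% of 52636 genes.

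Genes with a CPM above 1 in at least 2 of 11 libraries were tested with edgeR 4.0.16 (R 4.3.3; TMM, robust quasi-likelihood fit, Benjamini-Hochberg adjustment over all genes). CPM values are TMM-scaled. DESeq2 1.42.0 was an alternative. Shares of counts were compared by two-sided exact permutation over 462 assignments, with adjustment over 8 shares. Floors (3 counts) cover counting error only. SE values were worked back from the log2 fold change and the F statistic of the edgeR fit, and include spread between libraries. SD values are over libraries. Named genes were the 10 protein-coding and 5 non-coding genes with the largest called change in each direction whose groups do not overlap and whose mean is at least 10 CPM in the higher group, 2 to 4 leading members of each list, 12 known genes, and the 5 genes with the largest interaction on each side. Some genes that the rule names are not reported here. Tested on simulated data for the nuclear against whole cell comparison (32646 genes), the fit recovered 23.9%, 97.0% and 100% of genes changed by 1, 2 and 3 on the log2 scale, with 5 false calls. The changed genes (67, 67 and 66) were drawn from those above 10 CPM, about evenly in both directions. No shift in composition between libraries was simulated, so these rates do not cover the effect of scaling on the calls. Members and lists were chosen with earlier results of these data known, and list counts were given beside those of all genes in place of a set test. Each library was a separate mouse.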

Additional observations from a re-analysis of the deposited data

Results flagged for a closer look

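Among 194 groups of library values tested by Dixon's criterion, 27 held a sample far from the others, and chance flags about 1 in 20 groups. Most of these values were of whole cell library 1. It had the highest share of counts on the mitochondrial genome (0.331%), ribosomal protein genes (0.187%), small structural RNAs (0.746%) and 1-exon protein-coding genes (0.543%). It was also highest in CPM for mt-Co1 (436), mt-Co2 (86.1), mt-Atp6 (153), mt-Atp8 (46.5), Rps3 (86.7), Rpph1 (4433), Rmrp (1471), Rn7sk (717), Rn7s1 (303), Gm24447 (6241), Gm26035 (57.1), Gm26232 (194), Ccdc107 (933) and Nrgn (101). These classes and genes leaned to the whole cell side, but Rps3 was not called and the difference in mitochondrial share did not hold after adjustment.

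Whole cell library 5 stood above the other whole cell libraries for Drd2 (3003 CPM), Foxp1 (2256 CPM), Nrxn3 (7132 CPM) and Fos (16.6 CPM), and whole cell library 6 for Gm24270 (1.48 CPM). Nuclear library 7 had the lowest total (3701255 counts) and the highest Mettl7a1 (19.1 CPM) and Hspa1a (2.92 CPM) of its group. Nuclear library 5 had the lowest Rn7sk (11.8 CPM).

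The nuclear to whole cell difference was itself different between D2 and D1 libraries, by the interaction test, for many of the named genes, 12 of which are listed here. The interaction was -7.46 for Penk, -6.59 for Il31ra, -6.26 for Gpr6, -5.95 for Adora2a and -5.57 for Drd2. It was 2.29 for Gch1, 2.28 for 4930512M02Rik, 2.10 for 4932414N04Rik, 2.02 for Pdyn, 1.97 for Gm14085, 1.93 for Ankar and 1.79 for Sfxn1, all on the log2 scale. Gch1, 4930512M02Rik, 4932414N04Rik, Gm14085 and Ankar were tested in this one scaling (TMM in edgeR) only.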

How the results depend on the processing

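Counts of genes moved by over 1.5 times under several alternatives. Genes higher in nuclei numbered 1507 with DESeq2, 7968 with no low-count filter and 1261 with libraries thinned to the smallest total. Genes lower in nuclei numbered 977 with total counts, 1669 with the FPKM filter, and 1142 without nuclear library 7 and whole cell libraries 2, 5 and 6 (an alternative chosen after seeing the data). Leaving out each library in turn gave 437 (without nuclear 5) to 1259 (without whole cell 4) higher and 1957 (without nuclear 5) to 3562 (without whole cell 4) lower. Interaction counts, larger and smaller, were 1726 and 2560 with DESeq2 size factors, 4476 and 3573 with the DESeq2 interaction, 1571 and 3882 with upper quartile scaling and 15718 and 153 with total counts (the last pair chosen after seeing the data). The smaller side was 395 with the FPKM filter and 401 after background subtraction, and leaving out each D2 library gave 486 to 1588 larger. The cause of these moves was not tested.

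Library numbers were shared by nuclear and whole cell libraries 1, 2, 3 and 5. Deviations of same-numbered libraries correlated at -0.12, -0.19, -0.16 and -0.44, and whether a shared number marks a shared batch was not tested. With the replicate block 173 genes were higher and 1291 lower, against 1335 and 3022 without it on the same 8 libraries.

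The length difference was -0.21 with summed exons. List medians that changed sign were very long genes (0.16 with total counts, 0.26 with the FPKM filter), calcium and sodium channels (0.11 and 0.063), chromatin enzymes (0.046, FPKM filter) and glutamate receptors (0.16, total counts). Over protein-coding counts the share differences were -0.0669 points for mitochondrial genes, 6.80 for genes over 100 kb and -1.05 for genes under 5 kb, all past the threshold. After background subtraction ribosomal protein (-0.0514), small structural RNA (-0.294) and 1-exon (-0.192) differences had an adjusted exact p of 0.052. Without whole cell libraries 2, 5 and 6 the difference was -0.127 for mitochondrial counts, and it reversed to 5.23 for genes under 5 kb, 5.39 for lincRNA and antisense genes and 6.20 for the 10 highest genes. Leaving out each library gave -0.0993 to -0.0504 (mitochondrial), -0.0532 to -0.0238 (ribosomal protein), -0.278 to -0.145 (small structural) and -0.177 to -0.0987 (1-exon). Depth limits low genes, since a CPM under 0.811 in nuclear library 7 is under 3 counts.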
